A study of Bos taurus with 16 samples.

Results

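The genes described are the solute carriers (SLC), the membrane proteins that move sugars, amino acids, organic acids, bile acids, nucleosides, metals and ions across the cell surface and the membranes of organelles. They were chosen by name: a gene ID of the count table was a member where the gene tables of the study pair it with a symbol that starts with SLC and a number, or with SLCO. This gave 74 of 27607 gene IDs, out of 4181 IDs that these tables name. The 74 members belong to 30 SLC families, and the RefSeq gene table of the ARS-UCD2.0 assembly lists 374 SLC and SLCO symbols in cattle, so most carriers of the genome had no name here and were not analysed. The largest group was the 16 members of the SLC25 family, beside 8 organic anion and cation, 8 amino acid and amine and 6 sugar carriers. The others were grouped by what they carry.

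RNA was sequenced from the right lobe of the liver and the semitendinosus muscle of 8 Holstein bull calves, 1 library per calf and organ. In the IVP group, 4 calves came from oocytes collected by ovum pick-up after a mild hormonal stimulation, fertilised and cultured in vitro in serum-free medium, and transferred as embryos. In the MOET group, 4 calves came from multiple ovulation and embryo transfer, in which the dam was superovulated and inseminated and her embryos were flushed and transferred. All calves were born at term in 1 herd, were raised alike and carried no gene modification. Age at sampling was 98 to 104 days in 7 calves and 144 days in MOET calf 3213. All IVP calves had the same dam, and IVP calves 3208 and 3209 and MOET calves 3217 and 3218 had the same dam and sire, so the groups also differ in parents.

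Solute carriers set what a cell can take up and release. In hepatocytes, carriers of the SLC22, SLC17, SLC51 and SLCO families handle drugs, urate and bile acids between blood, cell and bile, and SLC25 carriers in the inner mitochondrial membrane exchange citrate, ornithine and nucleotides between mitochondrion and cytosol. In muscle fibres, SLC25A4 exchanges ADP for ATP, and SLC16A3 releases the lactate made by glycolysis. These links tie the carriers to gluconeogenesis, the urea cycle, lipid synthesis and respiration.

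Values are CPM, the deposited counts of a gene relative to the library total, with the totals scaled by TMM over the 16 libraries. They can be compared between calves and organs for 1 gene, but not between genes, since they are not divided by gene length. Values of single calves are given in the order 3208, 3209, 5833 and 5841 for IVP and 3213, 3217, 3218 and 5932 for MOET. The deposited counts of calf 3213 lay closer to the mean of the other MOET calves than counting noise allows for 1 library (median log2 deviation 0.0176 in liver and 0.0112 in muscle, against a counting noise of 0.0383 and 0.0413, and 0.104 to 0.359 and 0.0959 to 0.179 in the other calves). Means and SD are therefore over 4 IVP calves and the 3 other MOET calves, and a statement that groups do not overlap refers to these 7. The log2 differences, SE, p and FDR come from fits that keep calf 3213, except where a calf is said to be left out. Library totals were between 22758137 and 24667728 counts in liver and between 23677247 and 25626474 in muscle. Of the liver markers named here, 7 of 16, the summed level lay between 11725 and 26052 CPM in liver and up to 51.7 CPM in muscle. Of the muscle markers named, 8 of 16, it lay between 160802 and 226911 CPM in muscle and between 2.99 and 5.83 CPM in liver, so the organs matched their labels.

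Of the 74 members, 63 were expressed above the count filter in liver and 49 in muscle. Both filters were passed by 46, liver alone by 17, muscle alone by 3 and neither by 8. The members that did not pass had at most 12 counts in a liver library and at most 21 in a muscle library, and 5 members were at 0 counts in every muscle library. The number of counts limits what could be seen for these genes, among them SLC18A1, a vesicular monoamine carrier, and SLC26A5, known from hair cells of the ear.

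The organs were compared first, since the difference between liver and muscle was the largest in the data. A test of liver minus muscle, the mean over both embryo origins, passed an adjusted p (FDR) of 0.05 for 60 of 66 members in edgeR's quasi-likelihood fit of the 16 libraries, 41 higher in liver and 19 higher in muscle. Over all genes tested it passed for 83.9%, 44.5% higher in liver and 39.4% higher in muscle. The median log2 difference was 0.96 for the members and 0.098 for all genes. Member names came mostly from the study's lists on liver expression, alone or combined with methylation. Of the 46 tested members listed so, 33 were higher in liver and 9 in muscle at that FDR. Of the 20 others, 8 were higher in liver and 10 in muscle. The lean of the members toward liver is therefore not independent of how they were named. All 20 of the members with the largest differences, 10 in each direction, passed under each of 13 alternatives.

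The organic anion and cation carriers formed the most liver-sided group. All 8 were higher in liver, with a median log2 difference of 11.67, and none reached the count filter in muscle. All 8 were named through the study's lists on liver expression and entered the test through their liver counts. Their side was thus largely set by this choice, and the values below describe its size. SLC22A7, which takes up organic anions and nucleotides at the sinusoidal side of the hepatocyte, had a mean of 209 CPM in liver and 1 count in all muscle libraries together, a ratio of 31485 with a 95% counting interval of 5651 to 1243600. SLC17A3, a urate and phosphate carrier, had a mean of 106 CPM in liver and no count in muscle, which makes it at least 680-fold higher in liver at a floor of 3 counts per muscle library. By the same floor SLCO1A2, an uptake carrier of bile acids and drugs, was at least 472-fold higher, and SLC17A1, the sodium phosphate cotransporter NPT1 that also moves urate, at least 211-fold higher. SLC51B, the beta subunit of the bile acid exporter OST, had 3 counts over the muscle libraries and a liver mean of 23.8 CPM, a ratio of 1202 (411 to 5829). SLCO4C1, an organic anion carrier best known from the kidney, differed by 8.19 on the log2 scale (SE 0.34).

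Other carriers were as strongly tied to liver. SLC25A47, a mitochondrial carrier known as restricted to hepatocytes, had a mean of 123 CPM in liver and 3 counts over the muscle libraries, a ratio of 6118 (2094 to 29668). SLC5A9, a mannose and glucose cotransporter, had 2 muscle counts and a ratio of 861 (238 to 7109). SLC39A5, a zinc importer, was at 136 to 231 CPM in liver and 0.325 to 0.629 CPM in muscle, a log2 difference of 8.45 (SE 0.14). SLC38A4, which takes up neutral and cationic amino acids, was at 20.9 to 146 CPM in liver and at most 1.45 CPM in muscle, a difference of 7.09 (SE 0.34).

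On the muscle side the leading members carried amino acids, nucleosides, lactate and adenine nucleotides. SLC7A10, which exchanges small neutral amino acids, differed by -5.73 (SE 0.41) on the log2 scale for liver minus muscle, and SLC1A3, a glutamate and aspartate carrier, by -3.67 (SE 0.20). SLC29A2, the equilibrative nucleoside transporter ENT2, differed by -5.64 (SE 0.15), and SLC35F1, an SLC35 member of unsettled substrate, by -3.75 (SE 0.25). SLC16A3, the lactate exporter MCT4, was at 39.8 to 128 CPM in muscle and 1.38 to 4.76 CPM in liver, a difference of -5.22 (SE 0.25). SLC25A4, the muscle isoform of the ADP/ATP carrier, had a mean of 1815 CPM in muscle and 115 CPM in liver, a difference of -4.00 (SE 0.14). The magnesium carrier SLC41A3 (-3.17, SE 0.16), the sodium-potassium-chloride cotransporter SLC12A2 (-3.10, SE 0.17) and the phosphate importer SLC20A2 (-2.24, SE 0.09) were also among the 10 largest differences toward muscle. In each of the genes named here every muscle library was above every liver library.

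**Figure D1:**
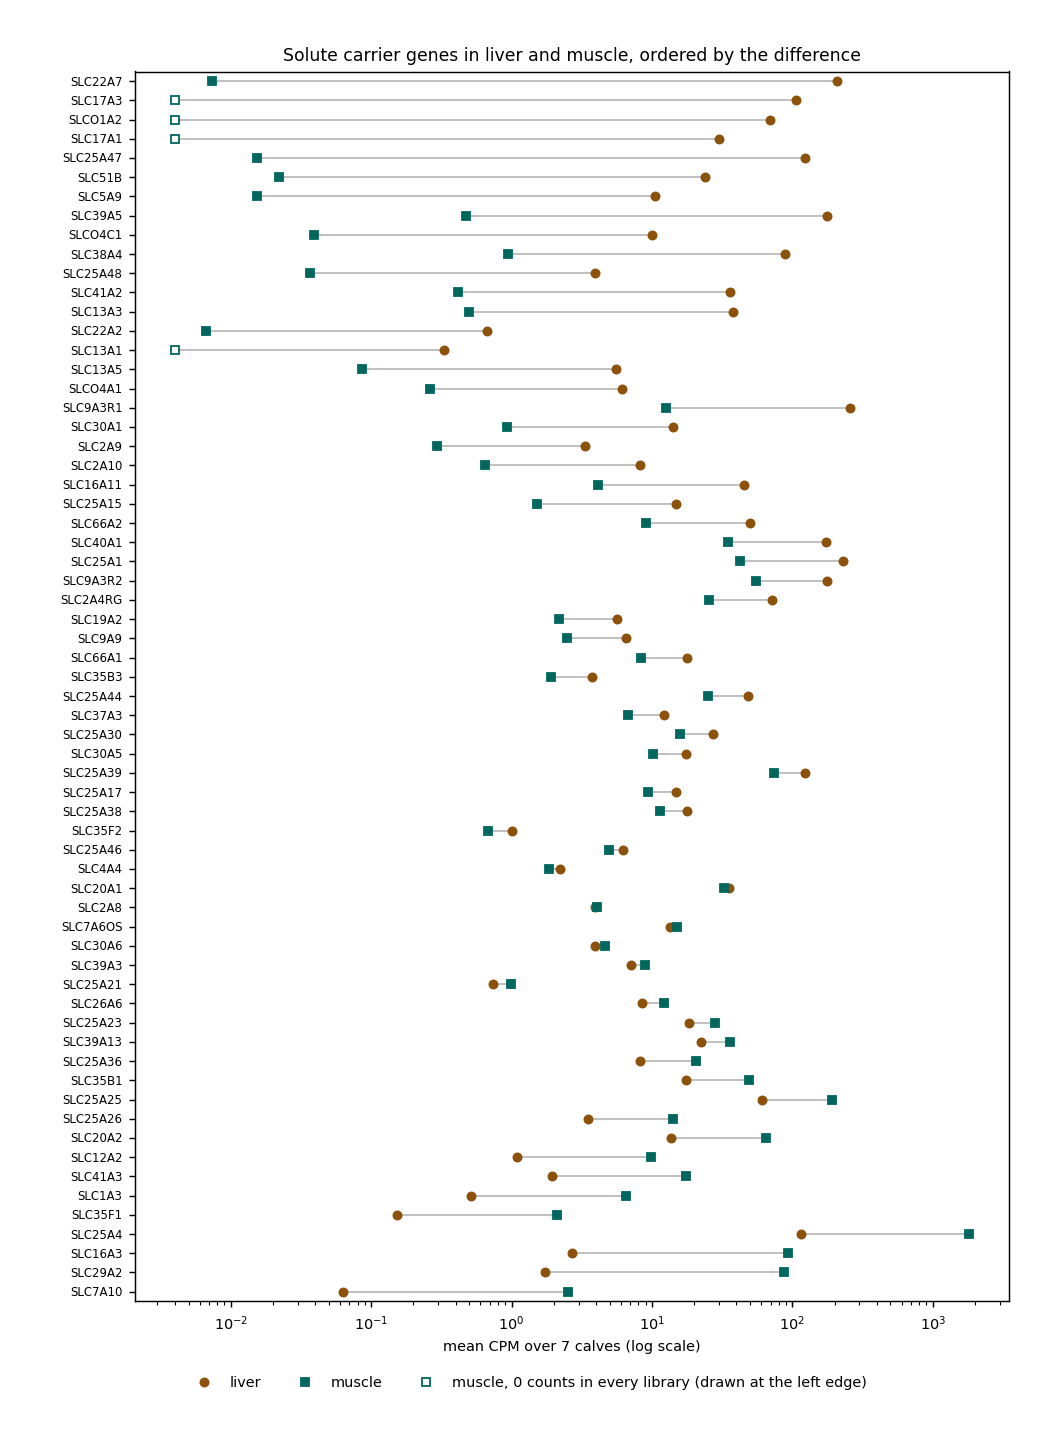
Mean CPM over 7 calves (log axis) of 64 of the 66 members tested between organs, brown circles for liver and green squares for muscle, ordered by the log2 difference. SLC22A7 stands at the top with 209 CPM in liver and 0.00741 CPM in muscle, and open squares mark the 4 genes without a count in muscle.

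Between these ends stood the members in which the organs differed little. The log2 difference of SLC2A8, an intracellular hexose carrier, was -0.09 (SE 0.12, FDR 0.493), that of the phosphate carrier SLC20A1 0.11 (SE 0.12, FDR 0.411), that of the bicarbonate cotransporter SLC4A4 0.24 (SE 0.27, FDR 0.416), and that of SLC25A46, a protein of the outer mitochondrial membrane involved in mitochondrial shape, 0.29 (SE 0.18, FDR 0.136). SLC25A21 and SLC30A6 did not pass either. With the calf as a block, as both organs came from the same calves, 59 members passed, and SLC7A6OS did not (FDR 0.0580). Of the SLC25 carriers, 9 were higher in liver and 5 in muscle, and of the metal carriers 5 and 3.

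The second question was whether liver differed by embryo origin. No member passed an FDR of 0.05 in liver in edgeR's quasi-likelihood test with age as covariate. The lowest FDR was 0.125, and 0.035% of all 14290 genes tested passed. At an unadjusted p under 0.05 there were 37 of 63 members, 18 higher and 19 lower in IVP, which is 58.7% against 29.8% of all genes (14.8% higher and 15% lower). Most members have a name because the study listed them for these same livers, on expression or on expression and methylation combined. The share of 58.7% is therefore not independent evidence. It was 73.3% of the 45 tested members listed in either way and 22.2% (4 of 18) of the others. The median log2 difference was -0.0019 for the members, with a range from -1.40 to 0.82, and -0.0040 for all genes. IVP and MOET calves did not overlap in 18 members above and 21 below, where 33.1% of all genes did not overlap (17.2% above and 16% below).

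The number of members with an FDR under 0.05 in liver depended on the model. It was 18 by DESeq2 with age (28.6%, against 11% of all genes), 29 by edgeR without age (46.0% against 21.0%) and 40 by DESeq2 without age (63.5% against 32.6%). Both fits without age kept calf 3213 as a replicate. EdgeR without age and without calf 3213 called 0 members (against 0.0347% of all genes). With age kept in edgeR's model, the number became 2 without IVP calf 3208 (3.17% against 0.699%) and 16 without IVP calf 5841 (25.4% against 8.41%). In that model it became 20 without MOET calf 3213 (31.7% against 15.2%), with ages of 98 to 104 days left. The share called thus moved over all genes as well as in the members. The 37 members with an unadjusted p under 0.05 became 20 without MOET calf 3217 and 21 without MOET calf 5932. All 37 kept their direction under each of 15 alternatives, and 6 of the 26 other members turned under at least 1. The sizes below are given with their SE and FDR and describe these calves.

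**Figure D2:**
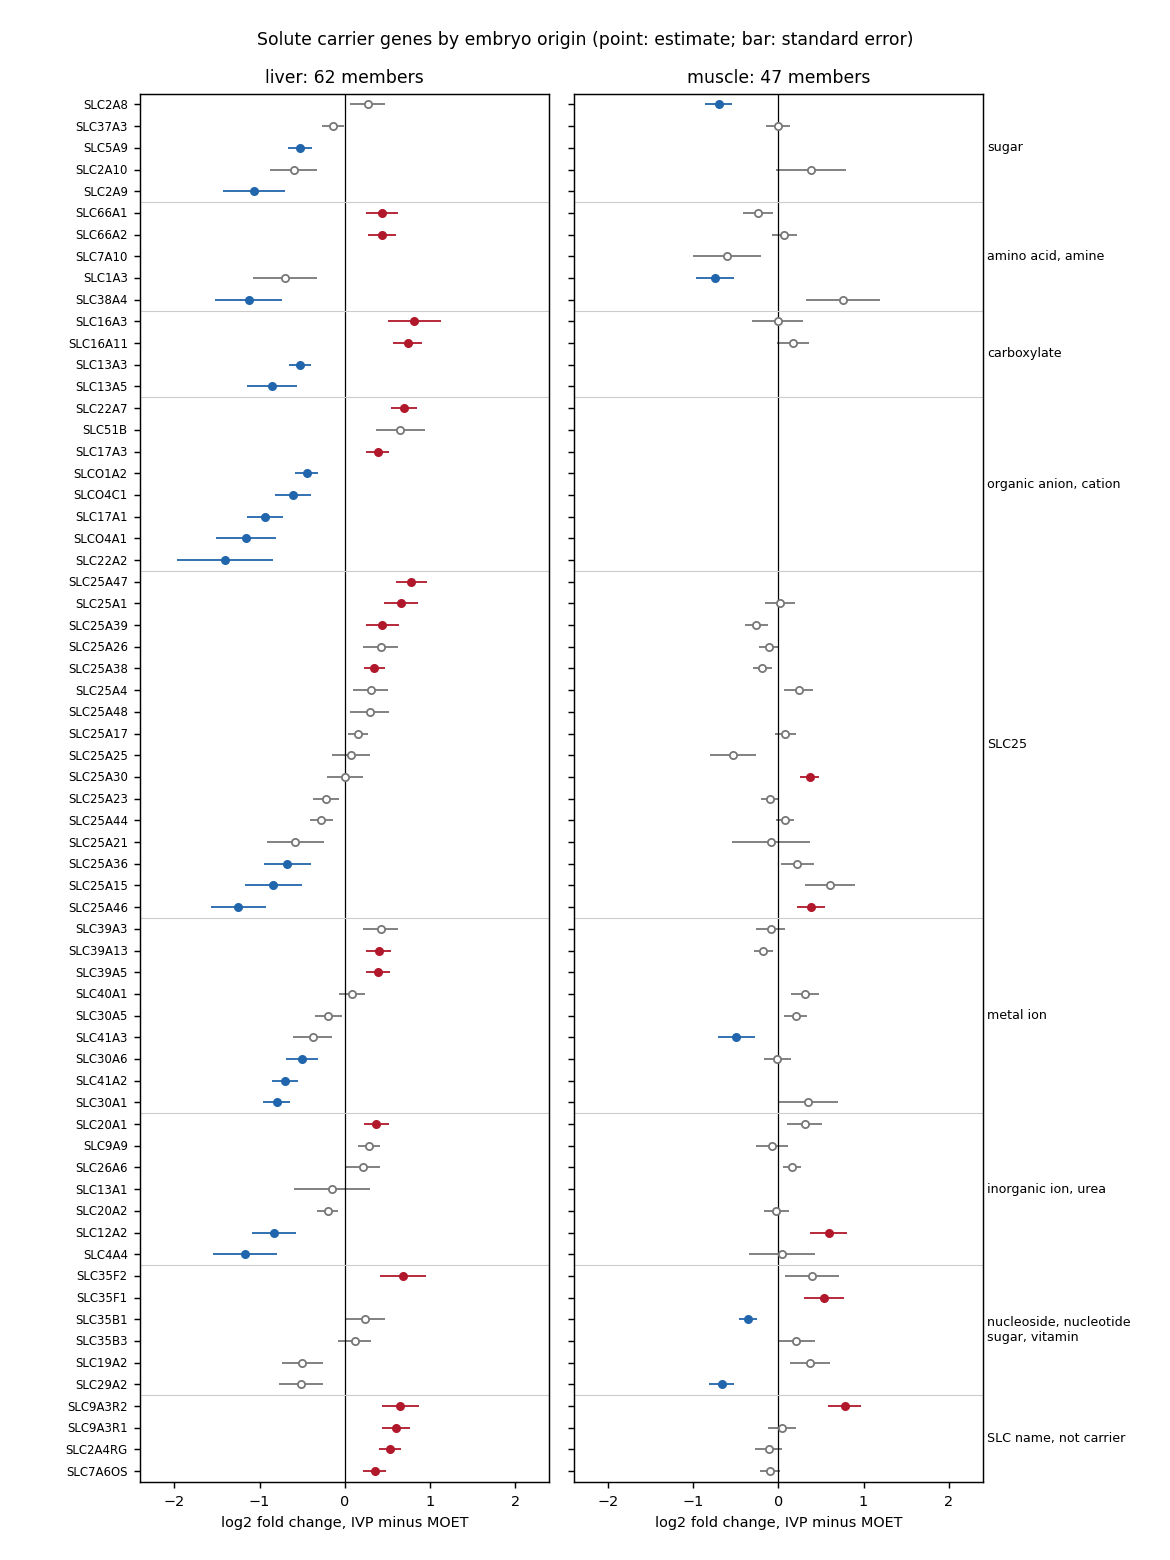
Log2 difference IVP minus MOET (x axis) of the members by family in liver (left, 62 of the 63 tested) and muscle (right, 47 of 49), with the SE as a bar. Filled points have an unadjusted p under 0.05, red where IVP was higher and blue where it was lower: 36 points in liver and 10 in muscle, and no point passed an FDR of 0.05.

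Of the organic anion and cation carriers, 7 of 8 had an unadjusted p under 0.05 in liver, 2 higher and 5 lower in IVP, where 29.8% of all genes did. All 8 had been listed by the study on liver expression, alone or combined with methylation. SLC22A7 was at 241, 260, 215 and 288 CPM in IVP livers and at 153, 136, 180 and 143 CPM in MOET livers. Every IVP liver was above every MOET liver, and the log2 difference was 0.70 (SE 0.16, FDR 0.125). SLC17A1 went the other way, with 24.2, 20.9, 24.2 and 16.3 CPM in IVP and 40.7, 34.9, 33.6 and 55.5 CPM in MOET, a difference of -0.94 (SE 0.21, FDR 0.125). Its neighbour in function SLC17A3 was higher in IVP, 118 ± 12.1 against 90.1 ± 9.7 CPM (0.39, SE 0.13), so the urate and phosphate carriers did not move as 1 group.

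The SLCO carriers in the family were lower in IVP liver. SLCO4A1, which carries thyroid hormone and other organic anions, was at 3.64, 3.58, 3.06 and 5.89 CPM in IVP and 8.64, 5.93, 6.28 and 14.3 CPM in MOET (-1.16, SE 0.36, FDR 0.126). The highest IVP calf lay just below the lowest MOET calf, and MOET calf 5932 was far above the rest. Without that calf the difference was -0.64 (SE 0.29, unadjusted p 0.0576 in edgeR's test). SLCO1A2 was at 60.6 ± 6.13 CPM in IVP and 81.8 ± 10.2 CPM in MOET (-0.45, SE 0.14), and SLCO4C1 at 8.15 ± 2.05 and 12.5 ± 2.01 CPM (-0.61, SE 0.21). SLC22A2, an organic cation carrier of the kidney, was near the limit of detection, with means of 0.384 and 1.04 CPM and overlapping groups, and its difference of -1.40 became -0.57 without MOET calf 5932. SLC51B had no unadjusted call: IVP calf 5833 was at 14.5 CPM, below the MOET calves, and the 3 other IVP calves were at 27.0 to 39.1 CPM, above them.

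Of the SLC25 members, 16 were tested in liver, and 4 were higher and 3 lower at an unadjusted p under 0.05, against 14.8% and 15% of all genes. SLC25A47 was at 118, 138, 150 and 198 CPM in IVP and 85.8, 84.5, 93.5 and 80.1 CPM in MOET, with no overlap and a log2 difference of 0.78 (SE 0.18, FDR 0.125). SLC25A1, the citrate carrier that supplies acetyl units for fatty acid and sterol synthesis, was at 275, 282, 192 and 337 CPM in IVP and 169, 147, 187 and 173 CPM in MOET (0.66, SE 0.20, FDR 0.126). Here IVP calf 5833 lay close to the highest MOET calf. SLC25A39, which brings glutathione into mitochondria, was at 140 ± 34.3 and 101 ± 8.33 CPM (0.44, SE 0.19, FDR 0.164), a difference that became 0.29 (SE 0.12, FDR 0.136) without IVP calf 5841. SLC25A38, a glycine carrier needed for heme synthesis, was at 19.6 ± 1.4 and 15.2 ± 0.928 CPM (0.35, SE 0.12, FDR 0.127).

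The SLC25 members lower in IVP liver differed more between calves. SLC25A46 was at 5.33, 4.09, 4.18 and 1.76 CPM in IVP and 8.02, 10.4, 7.15 and 10.3 CPM in MOET (-1.25, SE 0.32, FDR 0.125). SLC25A15, the ornithine carrier of the urea cycle, was at 16.6, 9.43, 12.9 and 5.27 CPM in IVP and 18, 18.2, 16.8 and 25.3 CPM in MOET (-0.84, SE 0.33, FDR 0.145). SLC25A36, a pyrimidine nucleotide carrier, was at 9.10, 6.16, 7.20 and 3.51 CPM in IVP and 9.63, 12.4, 9.60 and 9.48 CPM in MOET (-0.68, SE 0.28, FDR 0.152). In all of these, IVP calf 5841 was the lowest of the 8 calves and calf 3208 the highest of the IVP calves.

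Calf 5841 stood apart from the other IVP livers well beyond these genes. It was the IVP calf farthest from the median of its group in 38 of 63 members in liver and in 57.1% of all genes, against 13 of 49 members and 17.7% of genes in muscle. Without it, the differences of SLC25A46, SLC25A15 and SLC38A4 kept their sign, as did those of all 37 members with an unadjusted p under 0.05. Calf 3213 lay within the range of the other MOET calves in 58 of 63 members in liver and in 47 of 49 in muscle.

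The 4 carboxylate carriers tested in liver all had an unadjusted p under 0.05, 2 higher and 2 lower in IVP, where 29.8% of all genes did. SLC13A3, SLC13A5 and SLC16A11 had been listed by the study on liver expression, alone or combined with methylation, so this count is not independent evidence. SLC16A11, a monocarboxylate carrier of hepatocytes, was at 56.5, 57.3, 42.9 and 64.6 CPM in IVP liver and 32.5, 30.3, 38.5 and 28.8 CPM in MOET liver (0.74, SE 0.17, FDR 0.125). The lactate exporter SLC16A3 was higher as well, at 3.35 ± 1.12 against 1.84 ± 0.406 CPM (0.82, SE 0.31), with overlap. The sodium-dependent citrate carrier SLC13A5 was at 3.77, 4.85, 5.55 and 2.15 CPM in IVP and 6.60, 5.96, 8.15 and 8.25 CPM in MOET (-0.85, SE 0.29, FDR 0.128). Its relative SLC13A3, which takes up succinate and other dicarboxylates, was at 31.7 ± 2.33 and 45.3 ± 6.16 CPM (-0.53, SE 0.13). All IVP livers were below all MOET livers in both SLC13 carboxylate carriers. The monocarboxylate family members SLC16A4 and SLC16A14 had at most 10 and 6 counts in a liver library and were not tested.

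Among amino acid and amine carriers 4 of 8 were tested in liver. SLC38A4 was at 89.7, 52.9, 69.3 and 20.9 CPM in IVP and 106, 146, 112 and 131 CPM in MOET (-1.13, SE 0.39, FDR 0.128), with a wide spread in the IVP group between calves 3208 and 5841. The lysosomal amino acid exporter SLC66A1 was at 20.2 ± 4.49 and 14.7 ± 1.63 CPM (0.44, SE 0.19, FDR 0.160), and its relative SLC66A2 was at 50.3, 51.7, 51.3 and 74.6 CPM in IVP and 41.4, 38.6, 41.8 and 43.6 CPM in MOET (0.43, SE 0.17, FDR 0.137).

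No sugar carrier was called higher in IVP liver, and 2 of 5 tested were lower at an unadjusted p under 0.05, as were 15% of all genes. SLC5A9 was at 9.55, 9.91, 8.54 and 7.26 CPM in IVP and 12.5, 13.4, 12.2 and 12.3 CPM in MOET (-0.52, SE 0.14, FDR 0.125), without overlap. SLC2A9, the urate carrier of the glucose transporter family, was at 2.27 ± 0.945 and 4.81 ± 1.58 CPM (-1.06, SE 0.36, FDR 0.127), with overlap. The main hepatic and muscle glucose transporters, SLC2A2 and SLC2A4, are not among the named genes and were not analysed here.

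Zinc and magnesium carriers gave the smallest p of all members in liver. SLC30A1, which exports zinc from the cell, was at 13.1, 10.3, 10.2 and 9.48 CPM in IVP and 18.7, 18.9, 15.8 and 21.4 CPM in MOET (-0.80, SE 0.16, FDR 0.125). SLC41A2, a magnesium carrier, was at 35.8, 25.6, 27.4 and 24.4 CPM in IVP and 45.8, 45.3, 43.9 and 49.1 CPM in MOET (-0.71, SE 0.15, FDR 0.125). The groups did not overlap in either gene. The zinc carrier SLC30A6 of the secretory pathway was also lower (-0.50, SE 0.19), and the zinc carriers SLC39A5 (0.39, SE 0.14) and SLC39A13 (0.40, SE 0.15), which move zinc into the cytosol, were higher. The iron exporter SLC40A1 had means of 179 ± 30.7 and 169 ± 7.11 CPM (0.08, SE 0.15), and its difference was below 0 without IVP calf 5833.

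Of the inorganic ion carriers, SLC4A4 (-1.17, SE 0.37) and SLC12A2 (-0.83, SE 0.26) were lower in IVP liver, without overlap, and SLC20A1 was higher (0.37, SE 0.15). In the nucleoside, nucleotide sugar and vitamin group, SLC35F2 alone had an unadjusted p under 0.05, with 1.07, 1.34, 1.01 and 1.40 CPM in IVP and 0.740, 0.557, 0.966 and 0.688 CPM in MOET (0.68, SE 0.28, FDR 0.146).

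The 4 members that carry an SLC name without being carriers were all higher in IVP liver and none of them overlapped. Of all genes tested in liver, 17.2% lay above MOET without overlap. SLC9A3R1 and SLC9A3R2 are the scaffolds NHERF1 and NHERF2, which hold transporters at the apical membrane. SLC9A3R1 was at 279, 302, 258 and 373 CPM in IVP and 196, 188, 219 and 180 CPM in MOET (0.60, SE 0.16, FDR 0.125). SLC9A3R2 was at 165, 197, 181 and 298 CPM in IVP and 129, 120, 152 and 119 CPM in MOET (0.65, SE 0.22, FDR 0.127). SLC2A4RG, a DNA-binding regulator named after the muscle glucose transporter, was at 78.3, 84.9, 77.0 and 92.3 CPM in IVP and 57.5, 50, 62.1 and 59.0 CPM in MOET (0.53, SE 0.13, FDR 0.125). SLC7A6OS, named after its opposite-strand neighbour SLC7A6, was higher by 0.35 (SE 0.14). All 4 were listed on liver expression, alone or combined with methylation, so their common direction is not independent evidence. Of the tested members listed so, 73.3% had an unadjusted p under 0.05 in liver. The RefSeq table places SLC7A6OS over SLC7A6, SLC9A3R1 over NAT9 and SLC2A4RG over LIME1, and 24 of the 74 members overlap another protein-coding gene. Since the libraries keep no strand, reads from bases that both genes of a pair share cannot be assigned by strand. These overlaps are of whole gene spans, and their part in the counts was not tested.

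**Figure D3:**
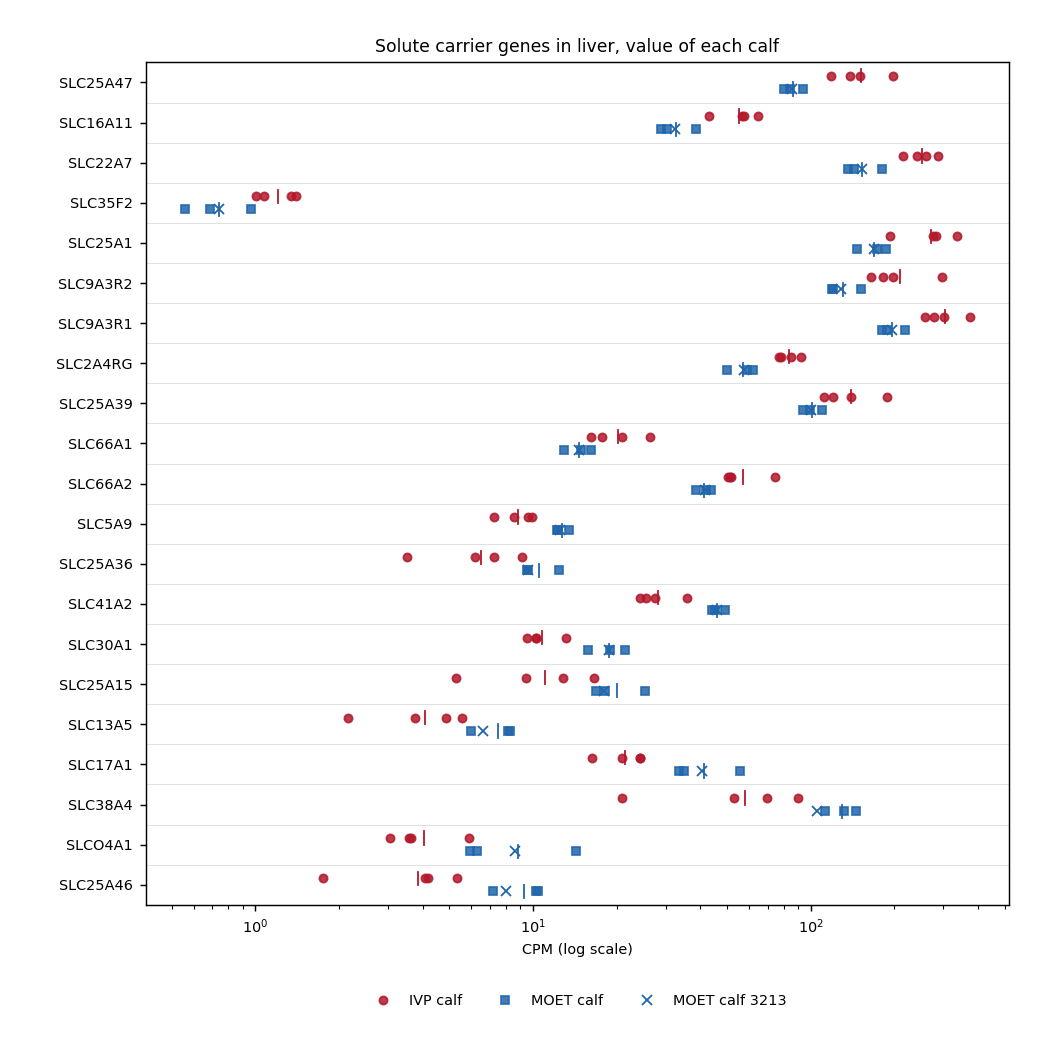
CPM (log axis) of each calf in liver for 21 of the 22 members named by the rule, ordered by the log2 difference, with IVP calves as red circles, MOET calves as blue squares, calf 3213 as a cross and group means as short lines. In SLC30A1 the IVP calves sit at 9.48 to 13.1 CPM below all MOET calves, and in SLC38A4 IVP calf 5841 sits apart at 20.9 CPM.

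Markers of other liver cells differed between the groups in the same libraries. The summed level of 4 macrophage markers (of 8 listed, 4 named) was 1240 to 2155 CPM in IVP and 918 to 1155 CPM in MOET liver, and all 4 had an unadjusted p under 0.05. Of the 4 collagen and DCN markers of fibroblasts and stellate cells (of 6 listed), 3 were lower in IVP at an unadjusted p under 0.05, with a sum of 396 to 523 CPM against 626 to 660 CPM. The endothelial sum (4 of 8 named) was 144 to 235 CPM against 133 to 142 CPM, with EGFL7 and CLDN5 higher and VWF lower in IVP. Of the cholangiocyte markers, 2 of 6 were named, and the sum was 3.55 to 4.68 against 5.08 to 5.86 CPM. Of lymphocyte, adipocyte and erythroid markers none were named. Of the hepatocyte markers themselves, 6 of 7 were higher and 1, APOB, lower, with APOA1 at 672 ± 243 CPM in IVP and 210 ± 68.5 CPM in MOET. In bulk tissue, fewer cells of a type and less RNA per cell cannot be told apart, and the part of cell composition in the carrier differences was not tested.

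In muscle, 49 members were tested for embryo origin, and no member passed an FDR of 0.05. The lowest FDR was 0.0753, and 0.467% of the 12854 genes tested passed. An unadjusted p under 0.05 was reached by 11 members, 5 higher and 6 lower in IVP, 22.4% against 19.8% of all genes (11.4% higher and 8.43% lower). Of the 12 tested members that the study listed on muscle expression and methylation combined, 7 were among them, and of the 37 others 4 (10.8%). The median log2 difference was 0.04, with a range from -0.74 to 0.78. IVP lay above MOET without overlap in 4 members and below in 5, where 19.2% of all genes did not overlap (9.64% above and 9.57% below). The number with an FDR under 0.05 was 4 by DESeq2 with age (8.16%, against 3.62% of all genes). It was 7 by edgeR without age (14.3% against 9.13%) and 8 by DESeq2 without age (16.3% against 12.6%). EdgeR without age and without calf 3213 called 0 members (against 0.634% of all genes). The 11 became 7 without MOET calf 3218. These 11 kept their direction under each of 15 alternatives, and 15 of the 38 others turned under at least 1.

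SLC1A3, SLC2A8 and SLC29A2 had the largest differences among the 6 members lower in IVP muscle. SLC2A8 was at 3.16, 3.09, 3.01 and 3.54 CPM in IVP muscle and 5.37, 4.94, 4.87 and 5.96 CPM in MOET muscle, without overlap (-0.70, SE 0.16, FDR 0.0753). SLC29A2 was at 76.6, 82.7, 51.1 and 66.0 CPM in IVP and 113, 103, 126 and 105 CPM in MOET (-0.67, SE 0.15, FDR 0.0755). SLC1A3 was at 4.87, 5.86, 4.63 and 4.82 CPM in IVP and 8.76, 6.59, 6.88 and 12.3 CPM in MOET (-0.74, SE 0.22, FDR 0.122). Here the groups were apart, and MOET calf 5932 was well above the others. Without that calf the difference was -0.39 (SE 0.15, FDR 0.269).

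SLC35B1, which exchanges ADP and ATP across the membrane of the endoplasmic reticulum, was at 46.5, 46.9, 36.8 and 43.8 CPM in IVP and 57.7, 53.4, 55.2 and 60.5 CPM in MOET muscle (-0.36, SE 0.11, FDR 0.127). SLC41A3 was at 15.7, 21.4, 9.89 and 12.3 CPM in IVP and 21.0, 21.9, 23.4 and 18 CPM in MOET (-0.49, SE 0.21, FDR 0.233), and IVP calf 3209 lay inside the MOET range.

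The members higher in IVP muscle were led by the scaffold SLC9A3R2, at 63.8, 54.7, 95.2 and 53.2 CPM in IVP and 39.1, 42.0, 41.6 and 35.9 CPM in MOET (0.78, SE 0.20, FDR 0.0907). NHERF2 is abundant in endothelial cells, and the 4 endothelial markers named here summed to 260 to 425 CPM in IVP and 228 to 238 CPM in MOET muscle, with 3 of 4 at an unadjusted p under 0.05 and all 4 higher. These markers too were named through the study's tables, and 19.8% of all genes had an unadjusted p under 0.05 in muscle. The part of endothelial markers in the difference of SLC9A3R2 was not tested. SLC12A2 was at 15.1, 9.22, 9.08 and 12.6 CPM in IVP and 7.61, 9.99, 6.77 and 6.34 CPM in MOET (0.59, SE 0.22, FDR 0.177), with overlap through MOET calf 3217. SLC25A30, an SLC25 carrier close to the uncoupling proteins, was at 15.9, 17.4, 18.9 and 17.6 CPM in IVP and 13.9, 13, 14.4 and 13.8 CPM in MOET (0.37, SE 0.11, FDR 0.123), without overlap. SLC25A46 (0.38, SE 0.17) and SLC35F1 (0.54, SE 0.24) were the other members higher at an unadjusted p under 0.05, and SLC35F1 was at 0.35 (SE 0.24) without MOET calf 5932.

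SLC25A4, SLC16A3, SLC16A11 and SLC25A25 had no unadjusted p under 0.05 in muscle. SLC25A4 had a mean of 1934 ± 303 CPM in IVP and 1655 ± 69.6 CPM in MOET muscle (0.24, SE 0.17, FDR 0.455). SLC16A3 was at 115, 128, 39.8 and 87.0 CPM in IVP and 90.6, 105, 96.5 and 80.1 CPM in MOET (-0.01, SE 0.30), so IVP calf 5833 was below all others. SLC16A11, the carboxylate carrier with the smallest p in muscle, had a difference of 0.17 (SE 0.19, FDR 0.648). The calcium-dependent ATP-Mg/phosphate carrier SLC25A25 was at 160 ± 57 and 232 ± 62.2 CPM (-0.53, SE 0.27). In muscle the fibroblast markers were lower in IVP (sum 1025 to 1468 against 1651 to 2039 CPM, 4 of 4 at an unadjusted p under 0.05), and the macrophage markers overlapped. At that level 8.43% of all genes were lower, and the fibroblast markers too were named through the study's tables.

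**Figure D4:**
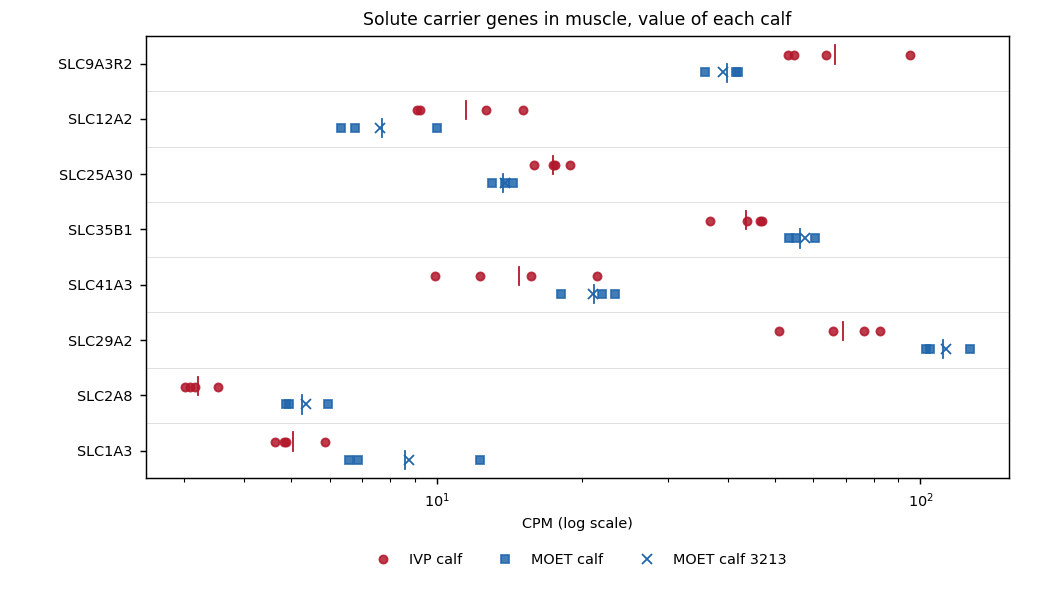
CPM (log axis) of each calf in muscle for 8 of the 9 members named by the rule with an unadjusted p under 0.05, with IVP calves as red circles, MOET calves as blue squares, calf 3213 as a cross and group means as short lines. SLC2A8 shows the IVP calves at 3.01 to 3.54 CPM left of all MOET calves, and SLC12A2 shows MOET calf 3217 at 9.99 CPM within the IVP range.

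The third question was whether the difference by embryo origin was itself different in the organs. The test of the difference in muscle minus that in liver passed an FDR of 0.05 for 4 of 66 members (2 in each direction), where 8.99% of all genes passed, 4.74% with the more positive difference in muscle and 4.25% with the more negative. An unadjusted p under 0.05 was reached by 23 members, 34.8% against 29.9% of all genes. Of the 46 members tested in both organs, 26 (56.5%) had opposite signs in liver and muscle, against 62.9% of 12007 genes.

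SLC25A46 (ENSBTAG00000009667) was lower in IVP liver and higher in IVP muscle. It was at 5.39, 5.53, 4.90 and 6.01 CPM in IVP muscle and 4.16, 4.04, 3.63 and 5.02 CPM in MOET muscle, beside the liver values given above. The difference between organs was 1.60 (SE 0.39, FDR 0.0342). SLC12A2 (ENSBTAG00000009637) showed the same order, with 1.07, 0.688, 0.864 and 0.624 CPM in IVP liver and 1.45, 1.67, 1.22 and 1.46 CPM in MOET liver, and an organ difference of 1.39 (SE 0.35, FDR 0.0370). Its liver values rest on 16 to 51 counts per library.

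SLC2A8 (ENSBTAG00000006957) went the other way, lower in IVP muscle and with overlapping groups in liver, where the IVP calves were at 3.35, 4.16, 3.93 and 5.78 CPM and the MOET calves at 3.49, 3.44, 3.57 and 3.44 CPM. Its organ difference was -0.998 (SE 0.26, FDR 0.0379). SLC25A38 (ENSBTAG00000022721) was at 20.2, 19.3, 17.8 and 21.1 CPM in IVP and 15.4, 14.4, 15.1 and 16.2 CPM in MOET liver, and at 10.1, 10.6, 10.5 and 11.5 CPM in IVP and 12.5, 13, 12.7 and 11.3 CPM in MOET muscle, an organ difference of -0.57 (SE 0.16, FDR 0.0410). With the calf as a block, SLC25A46 (FDR 0.0443) and SLC12A2 (FDR 0.0389) still passed, and SLC2A8 (FDR 0.0523) and SLC25A38 (FDR 0.0784) did not. SLC38A4 (1.86, FDR 0.0403) and SLC2A9 (2.07, FDR 0.0435) passed instead. Their muscle values rest on 0 to 30 counts per library in SLC38A4 and 1 to 11 in SLC2A9, which was below the muscle filter. No member passed without IVP calf 3209 or 5833 or without MOET calf 3217, 3218 or 5932, and 12 passed without IVP calf 3208 (18.2%, against 16.4% of all genes) and 9 without MOET calf 3213 (13.6% against 14.1%).

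**Figure D5:**
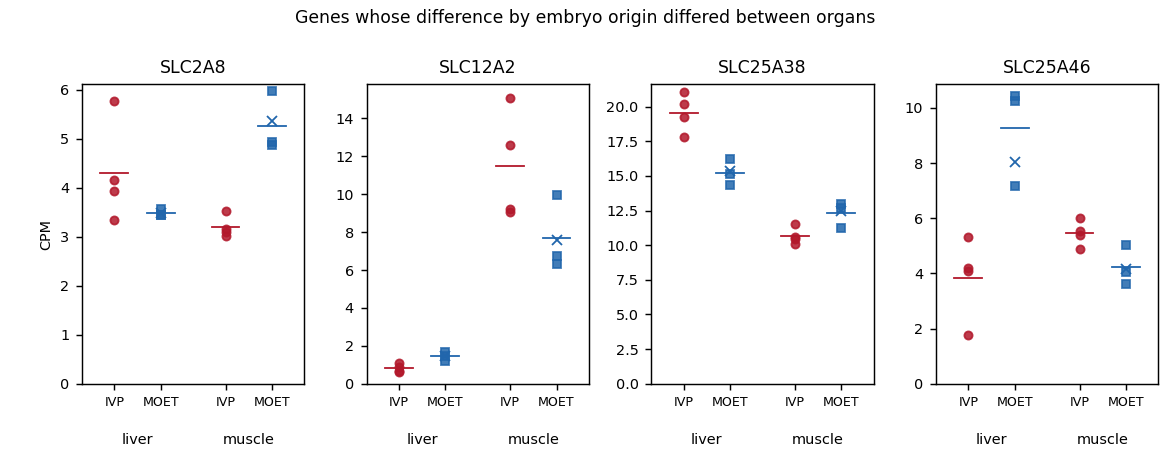
CPM (linear axis from 0) of each calf for the 4 members whose IVP minus MOET difference differed between organs at an FDR under 0.05 without the calf block, with IVP as red circles, MOET as blue squares, calf 3213 as a cross and group means as lines. In SLC25A46 the IVP calves lie at 1.76 to 5.33 CPM below the MOET calves in liver and have the higher mean in muscle, and in SLC2A8 they lie at 3.01 to 3.54 CPM below the MOET calves in muscle.

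Carriers work with pumps, chaperones and pores that set the gradients and the membrane place they need. Of 30 such partner genes listed, 16 were named and 15 were tested in each organ. They too have a name because the study's tables list them, so their counts are not independent evidence. In liver 6 were higher and 4 lower in IVP at an unadjusted p under 0.05, 66.7% against 29.8% of all genes, and none passed the FDR. BSG, the chaperone that brings monocarboxylate carriers of the MCT family to the surface, was at 1202 ± 509 CPM in the liver of IVP calves and at 700 ± 5.67 CPM in that of MOET calves (0.73, SE 0.29, FDR 0.143). AQP8, a water and peroxide channel of hepatocytes, was at 348 ± 38.4 and 229 ± 16.3 CPM (0.58, SE 0.14, FDR 0.125). The calcium pump ATP2A2 was lower (-0.78, SE 0.16). The subunits of the lysosomal proton pump split, with ATP6V0D1 (0.57, SE 0.21), ATP6V0E1 (0.54, SE 0.15), ATP6V1E1 (0.45, SE 0.19) and ATP6V1F (0.66, SE 0.26) higher and ATP6V0A2 (-0.59, SE 0.22) and ATP6V1A (-0.38, SE 0.13) lower. Without IVP calf 5841 the differences of BSG, ATP6V0D1, ATP6V1E1 and ATP6V1F were 0.44, 0.37, 0.30 and 0.41.

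In muscle 6 partners were higher and 2 lower in IVP at an unadjusted p under 0.05, 53.3% against 19.8% of all genes (11.4% higher and 8.43% lower). MCU (ENSBTAG00000003876), the pore of the mitochondrial calcium uniporter, rose in IVP muscle, with 17.4 ± 2.51 against 10.1 ± 0.719 CPM, a difference of 0.81 (SE 0.14, FDR 0.0428). With 1 calf left out it passed in 1 of 8 cases, without IVP calf 3209 (FDR 0.00757), and not without any other calf (FDR up to 0.200), at a difference of 0.74 to 0.91. The calcium pump ATP2A2, an isoform of slow fibres, was at 2179 ± 1083 and 770 ± 266 CPM (1.50, SE 0.39, FDR 0.0954). In the same libraries the slow myosin MYH7 was at 10787 ± 5405 and 3481 ± 1338 CPM (1.65, SE 0.40). Of the 8 muscle markers named, 2 were higher at an unadjusted p under 0.05, MYH7 and MYH2 (0.79, SE 0.23). At that level 1 was lower, TNNC2 (-0.60, SE 0.27). The part of fibre type in the difference of ATP2A2 was not tested. AQP4, the water channel of fast fibres, was at 80.0 ± 19.6 and 51.3 ± 5.18 CPM (0.65, SE 0.19). EZR (0.35, SE 0.11) and BSG (0.41, SE 0.17) were higher, and ATP6V0D1 (-0.33, SE 0.11) and ATP6V1F (-0.33, SE 0.10) lower. The difference of ATP2A2 had opposite signs in the organs, and that difference was not tested here.

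Among the calves with the same dam and sire (IVP 3208 and 3209, MOET 3217 and 3218), the direction of the liver difference matched that of the 8 calves in 60 of 62 members, and in 37 of the 37 with an unadjusted p under 0.05. In muscle it matched in 41 of 49 members and in 11 of those 11. These 4 calves are part of the 8, so this shows where the difference lies and is no separate test.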

How the data were processed

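Liver and muscle libraries of 8 calves, 16 in all, were unstranded and made from polyadenylated RNA. Reads were filtered by the authors (SOAPnuke), aligned to bosTau9 (STAR), counted per Ensembl gene (HTSeq) and freed of the effect of age (sva), by a model that the sources used here do not give. The values the authors deposited are whole numbers, treated as estimated counts because of that adjustment. Counts had been assumed in the design. Since rounding changed no value, the planned tests were kept. Columns of values that belong to no sample here numbered 0, and no ID was a total. The methylation data and the columns of the study's own comparisons (fold changes and p-values) were not used. Gene names came from the study's supplementary tables, held here in part. Of the members, 50 were listed there for liver, 18 on expression and 40 on expression and methylation together, some on both. Listed on muscle expression and methylation together were 13, and on liver methylation alone 12. Members, families and lists were chosen with earlier results of these data known.

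Per organ, filterByExpr of edgeR 4.0.16 (minimum count 10, minimum total 15) chose the genes, TMM scaled the libraries, and a quasi-likelihood test of embryo origin had age (days) in the model, with Benjamini-Hochberg adjustment over all genes. Age was in the model although the counts were already adjusted. The organ tests used 1 fit of 16 libraries, with age within each organ. The SE is the log2 difference divided by the square root of F. Ratios against 1 to 3 muscle counts have exact Poisson intervals (95%) and cover counting error only, as does the floor of 3 counts. Parents and origin cannot be told apart fully, and p-values measure the spread between these calves. DESeq2 1.42.0, RLE factors, no filter, no age, leaving out each calf and the calf block were alternatives (limma 3.58.1, R 4.3.3, Python 3.11.15, matplotlib 3.10.9). The reported edgeR fits of liver, of muscle and of both organs were first run on simulated counts, and the alternatives were not.

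Each calf gave both organs and so pairs 2 libraries. Over 12007 genes, the correlation of a calf's deviations in the organs lay between -0.133 and 0.284 (median 0.119), above 0.1 in 5 of 8 calves. Named with full values were members with an FDR under 0.05, in each organ up to 10 higher and 10 lower with the largest difference among those with an unadjusted p under 0.05 and a mean of at least 5 CPM, the member with the smallest p of each family, the 10 largest organ differences in each direction, and partner genes with an unadjusted p under 0.05. Other members are named to describe their family, after their values were seen. Some genes that the rule names are counted but not reported or drawn here. Sequences were not analysed here, and genome positions were used only for the overlaps with other genes.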

Additional observations from a re-analysis of the deposited data

Results flagged for a closer look

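In the liver, SLC66A2 of IVP calf 5841 stood at 74.6 CPM, far from the 3 other IVP calves at 50.3 to 51.7 CPM. It was the only outlier by Dixon's test among 32 groups of 4 IVP calves examined, and chance alone gives about 1 in 20.

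The IVP minus MOET difference of SLC25A46 was 1.60 higher on the log2 scale in muscle than in liver, and that of SLC12A2 1.39 higher. That of SLC2A8 was -0.998 and that of SLC25A38 -0.57, both lower in muscle than in liver. These differences between organs passed an FDR of 0.05 in edgeR's interaction test of the 16 libraries. Their direction was the same under 13 of 13 alternatives, and they passed under 8, 8, 7 and 5 of these, in the order given.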

How the results depend on the processing

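No member named by the rule and no member with an unadjusted p under 0.05 turned its direction under any alternative, while 6 other members in liver and 15 in muscle did under at least 1. The number of members with an FDR under 0.05 in liver (0) became 18 by DESeq2 with age, 40 by DESeq2 without age and 29 by edgeR without age, and lay between 0 and 20 when 1 calf was left out (2 without 3208, 16 without 5841, 20 without 3213). At an unadjusted p under 0.05 the 37 liver members became 20 to 42 with 1 calf left out (20 without 3217, 21 without 5932), 45 by edgeR without age and 46 by DESeq2 without age. In muscle the FDR count (0) became 1 without the low count filter, 4 by DESeq2 with age, 8 by DESeq2 without age, 7 by edgeR without age and 0 to 2 with 1 calf left out (2 without 3209, 1 without 5841 or 3213). The unadjusted count (11) became 7 among the calves with the same parents and 7 to 15 with 1 calf left out (7 without 3218). The organ difference by origin (4) became 23 by edgeR without age, 13 by DESeq2 and 0 to 12 with 1 calf left out, and its unadjusted count (23) 10 to 24 with 1 calf left out (10 without 3217). The 60 members that differed between organs became 59 to 62 with 1 calf left out. With calf 3213 and age both left out, the FDR counts were 0 in liver and 0 in muscle. With the calf as replicate block, 4 members passed the organ difference by origin, 2 of them the same, and 59 passed between organs. The cause of these changes was not tested. Of the values of named genes under alternatives, 661 stayed on their side of the threshold, 107 passed only under the alternative and 24 only in the reported fit.

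Liver SLC12A2 and SLC35F2 rest on few counts, and 11 members in liver and 25 in muscle were below the filter. Each group holds 4 calves of few parents, and the counts of calf 3213 follow the mean of the other MOET calves. Gene names were available for some of the carriers only, through lists chosen on these libraries.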

Other observations

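The IVP muscles differed among themselves in transcripts foreign to muscle. AQP8 was at 14.4 CPM in the muscle of IVP calf 5833 and at most 0.0548 CPM in the 7 other muscles. TTR was at 0.438 to 43.4 CPM over the muscles, with every IVP muscle above every MOET muscle (FDR 0.0940 in edgeR's test). The other liver markers named did not share this order. RBP4 was lower in IVP muscle without overlap, with means of 4.65 and 5.88 CPM (FDR 0.267). APOA1, APOA2, APOC3 and ASGR1 did not separate the groups, and APOB was at 0 CPM in every muscle. The liver carriers SLC17A1, SLC17A3 and SLCO1A2 had no count in these muscles, and SLC22A7 had 1.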
